A study of Trametes versicolor and Gelatoporia subvermispora with 30 samples.

Results

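Cslcs1, Cslcs2 and Cslcs6, which are laccases by their symbols, and Csmco1, a multicopper oxidase by its symbol, were followed in the white-rot fungus Gelatoporia subvermispora across 5 culture conditions. The genes were taken from the count tables by their symbols. They are 4 of the 12313 genes of this fungus and of the 26883 genes in the tables of both species of the study, and all 4 passed the filter on low counts that left 10860 genes for testing. The tables list them as gene10180 (Cslcs1), gene10175 (Cslcs2), gene5732 (Cslcs6) and gene5543 (Csmco1).

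Multicopper oxidases take single electrons from a substrate at a copper site and pass them to a copper cluster, where oxygen is reduced to water. Laccases are the members of this family that oxidise phenols, and white-rot fungi secrete them onto wood, where they oxidise phenolic units of lignin directly and other units through small diffusible mediators. The same family holds ferroxidases such as Fet3, which oxidise iron(II) at the cell surface during iron uptake. G. subvermispora is known for removing lignin ahead of cellulose and for secreting manganese peroxidases and laccases.

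Transcripts were measured by RNA sequencing of 3 libraries per condition. The milled poplar cultures held 2 g of milled poplar wood in 25 mL of medium and no cellobiose. The lignin cultures held 25 mg of lignin isolated from poplar in 25 mL together with 5 g per litre of cellobiose, a sugar released from cellulose. The syringic acid and 4-hydroxybenzoic acid (4HBA) cultures held 2 mM of the acid together with the same amount of cellobiose, and the cellobiose cultures held that sugar alone. All 5 shared a defined mineral medium of the Czapek-Dox type, whose trace elements included copper, manganese and iron salts, and an inoculum of homogenised mycelium. Milled poplar therefore differs from the other conditions both by the wood and by the lack of cellobiose. The labels do not say whether the 3 libraries of a condition came from separate cultures, so the p-values measure only the spread between these libraries.

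Gene counts summed to between 24.7 M and 50.3 M per library. Library type here means how much of a library its 10 most abundant genes took. That share was 32.7% to 43.5% in 4HBA replicate 1 and all 3 libraries from cellobiose, and it was 4.07% to 7.95% in each of the other 11. The libraries of high share also had 24.2% to 27.9% of all counts placed in no gene, against 7.84% to 9.89% in the other 11. The types thus differ in more than that share. Every comparison of poplar, lignin or syringic acid with cellobiose therefore crosses this division, and library type and condition cannot be told apart in it except through 4HBA replicate 1. Comparisons of poplar, lignin and syringic acid with each other stay among the 11 libraries. Levels below are normalised CPM, which are gene counts divided by the library's gene count in M, after scaling of the libraries by the trimmed mean of M-values (TMM). No annotation of this species was used here, so no positions, gene lengths or sequences are given, and levels are compared between conditions for 1 gene at a time and not between genes. Closely similar genes of a family may also share reads that the counting dropped or assigned to 1 copy, which leaves single laccases less certain than their counts alone would make them.

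Milled poplar gave the highest mean level of each of the 4 genes, except that under upper-quartile scaling Cslcs6 was lower than with 4HBA (log2 difference -0.081). That scaling moved the median of all genes by -0.30 in the comparison with 4HBA, and Cslcs6 lay 0.28 above the median under both scalings. A scaling moves all genes nearly alike, so a gene keeps its distance from the median by construction. On poplar Cslcs1 stood at 6.34-fold its cellobiose level, Cslcs2 at 4.46-fold, Csmco1 at 3.90-fold and Cslcs6 at 1.29-fold. Cslcs1 stood at 2.69-fold that level with isolated lignin and at 2.71-fold with syringic acid. With 4HBA, Cslcs2 was at 0.421 of its cellobiose level, and the other genes were not called. With library type as a term, Cslcs6 on poplar (log2 change 0.036) and Cslcs2 with 4HBA (-1.14) were not called. Cslcs6 varied least, with a 1.41-fold spread between its highest and lowest condition means, against 5.53-fold for Csmco1, 6.34-fold for Cslcs1 and 10.6-fold for Cslcs2.

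**Figure D1:**
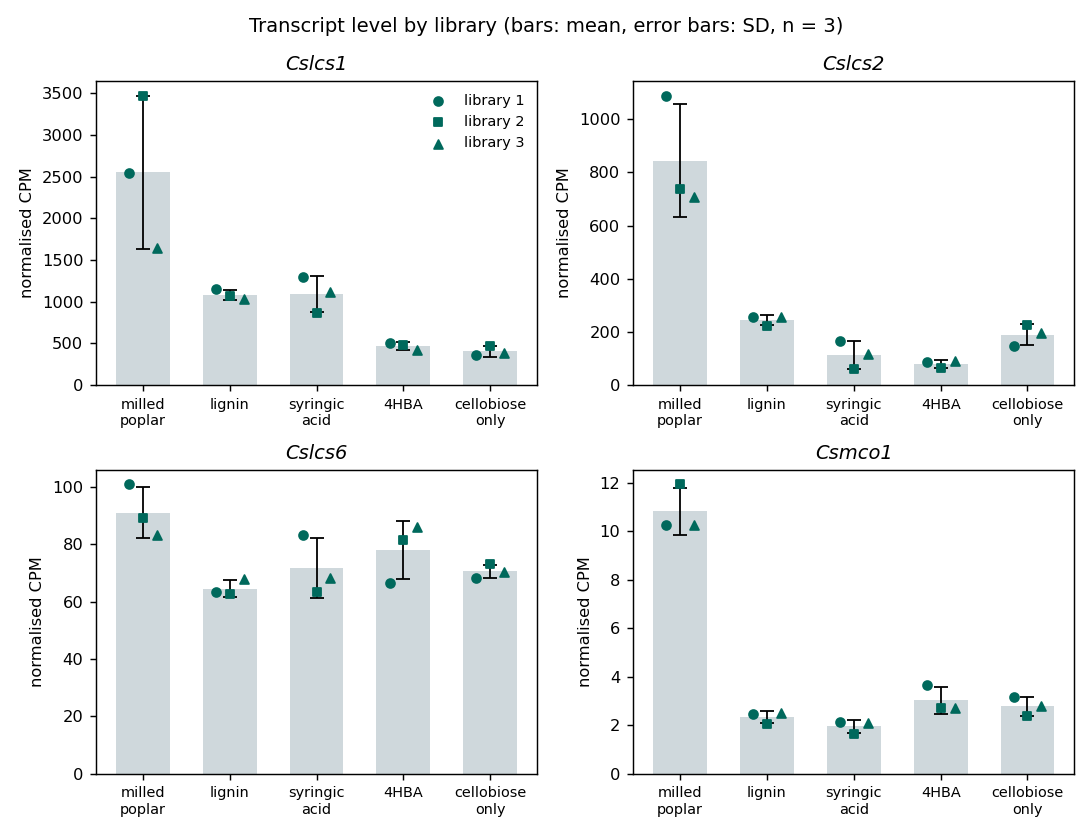
Transcript levels of Cslcs1, Cslcs2, Cslcs6 and Csmco1 in normalised CPM (vertical axes, each from 0) in 5 culture conditions; points are single libraries, bars the mean and error bars the SD of 3 libraries. The poplar libraries of Cslcs1, Cslcs2 and Csmco1 all lie above every library of the other conditions, while the Cslcs6 libraries stay between 62.5 and 101 CPM throughout. How many of all genes separate poplar in this way was not counted, and 75.8% to 79.2% of them were called in the comparisons of poplar.

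A gene was called where the adjusted p of edgeR's quasi-likelihood F-test, taken over all 10860 tested genes, was below 0.05. On poplar against cellobiose all 4 genes were called, beside 76.1% of all tested genes, so that a call in this comparison is common. The median log2 change of the 4 genes, which were chosen with earlier results of these data known, was 2.06, against -0.020 over all genes. Cslcs1, Cslcs2 and Csmco1 were among the 35.0% of all genes called with a change of at least 2-fold, and the change of Cslcs6 was smaller than the median absolute log2 change of all genes, 0.69. On lignin against cellobiose 1 of the 4 genes was called, beside 47.3% of all genes. With syringic acid 3 of the 4 were called, beside 56.5% of all genes, and with 4HBA 1 of the 4, beside 31.5%. With library type as a term, 3 of the 4 genes were called on poplar, beside 6331 genes in all, against 8264 without the term. The same fit called 1 with lignin (beside 1232, against 5138), 1 with syringic acid (beside 2705, against 6137) and 0 with 4HBA (beside 844, against 3417). These 4 comparisons share the cellobiose libraries.

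Cslcs1 separated the conditions into 3 levels. On milled poplar its libraries stood at 2544, 3474 and 1643 CPM. With lignin they stood at 1147, 1065 and 1037 CPM, with syringic acid at 1295, 865 and 1117 CPM, with 4HBA at 509, 479 and 422 CPM, and on cellobiose at 356, 473 and 381 CPM. Every poplar library lay above every other, and every lignin and syringic acid library lay above every 4HBA and cellobiose library, while lignin overlapped syringic acid and 4HBA overlapped cellobiose.

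Against cellobiose the log2 change of Cslcs1 was 2.66 on poplar (SE 0.25, adjusted p = 1.94e-07), 1.43 with lignin (SE 0.24, adjusted p = 0.000297) and 1.44 with syringic acid (SE 0.24, adjusted p = 0.000178). Each of these remained called when library type was fitted as a term, at 2.84, 1.60 and 1.61 (adjusted p = 5.61e-05, 0.0244 and 0.0120). Cslcs1 averaged 469.9 ± 43.8 CPM with 4HBA and 403 ± 61.7 CPM with cellobiose alone (SD, n = 3 each), a log2 change of 0.22 that was not called (95% interval -0.28 to 0.72). Among libraries of the same type, those of 4HBA replicates 2 and 3 included, lignin exceeded 4HBA by 1.26 and syringic acid exceeded 4HBA by 1.28 on the log2 scale (SE 0.26 each, adjusted p = 0.00293 and 0.00155). Lignin averaged 1083 ± 57.0 CPM and syringic acid 1092 ± 216 CPM, and they differed by -0.012 on the log2 scale (95% interval -0.51 to 0.49). In order of level, then, poplar stood above syringic acid (log2 difference 1.23, adjusted p = 0.000253), syringic acid and lignin could not be separated, lignin stood above 4HBA (1.20, adjusted p = 0.00140), and 4HBA and cellobiose could not be separated.

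Cslcs2 was the gene with the widest range, and the only one of the 4 called lower with 4HBA. On milled poplar its libraries stood at 1089.6, 737 and 707 CPM. With lignin they were at 257, 223 and 255 CPM, with syringic acid at 165, 59.2 and 115 CPM, with 4HBA at 86.0, 63.2 and 90.0 CPM, and on cellobiose at 146, 227 and 195 CPM. Poplar lay above all other libraries and 4HBA below all lignin and cellobiose libraries, while the syringic acid libraries spread from under the 4HBA range into the cellobiose range.

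Against cellobiose Cslcs2 rose by 2.16 on the log2 scale on poplar (SE 0.30, adjusted p = 1.26e-05), and by 2.32 with library type as a term (SE 0.53, adjusted p = 0.00231). It averaged 79.7 ± 14.5 CPM with 4HBA and 189 ± 40.5 CPM with cellobiose alone (SD, n = 3 each), a log2 change of -1.25 (SE 0.29, adjusted p = 0.00584). Only 4HBA replicate 1 shares the cellobiose library type, and set alone against those libraries it gave -1.14 (SE 0.46, adjusted p = 0.149), where the lone library is assumed to vary as the other groups do. Without that library the change was -1.32 and was called (adjusted p = 0.0118). Lignin, at 245 ± 19.0 CPM, was not called against cellobiose (log2 change 0.37, 95% interval -0.25 to 0.99).

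With syringic acid Cslcs2 averaged 113 ± 53.0 CPM, a log2 change of -0.74 from cellobiose (SE 0.29, adjusted p = 0.0413). That call was lost without any one of cellobiose replicate 2 (-0.60), cellobiose replicate 3 (-0.73), syringic acid replicate 2 (-0.43) or syringic acid replicate 3 (-0.75). With all libraries kept it was lost without the most abundant genes (-0.70, adjusted p = 0.0524), in a fit of both groups alone (-0.70, adjusted p = 0.111) and with library type as a term (-0.58, adjusted p = 0.477), so it lies at the threshold. The values in order of level were poplar above lignin (log2 difference 1.79, adjusted p = 6.29e-05), lignin and cellobiose not separated, cellobiose above syringic acid by the call just described, and syringic acid and 4HBA not separated. Lignin itself stood above 4HBA by 1.62 (adjusted p = 0.000833), and by 1.68 among libraries of the same type (adjusted p = 0.00327).

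Csmco1 was read at low counts, between 48 and 487 per library, and stood apart on poplar alone. Its poplar libraries were at 10.3, 11.9 and 10.3 CPM. The lignin libraries were at 2.46, 2.05 and 2.50 CPM, those with syringic acid at 2.13, 1.65 and 2.10 CPM, those with 4HBA at 3.68, 2.71 and 2.70 CPM, and those on cellobiose at 3.16, 2.40 and 2.78 CPM. The lowest poplar library, 10.3 CPM with an exact 95% Poisson interval of 9.35 to 11.2 CPM, lay above the highest of the others, 4HBA replicate 1 at 3.68 CPM with an interval of 2.72 to 4.86 CPM.

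Csmco1 rose by 1.96 on the log2 scale on poplar against cellobiose (SE 0.15, adjusted p = 2.39e-08), and by 2.40 with library type as a term (adjusted p = 8.14e-06). With 4HBA it averaged 3.03 ± 0.558 CPM, against 2.78 ± 0.378 CPM on cellobiose, a log2 change of 0.073 (95% interval -0.28 to 0.42) that was not called. With syringic acid Csmco1 averaged 1.96 ± 0.268 CPM (SD, n = 3), a log2 change of -0.49 from cellobiose (SE 0.17, adjusted p = 0.0208). That fall lost its call without cellobiose replicate 1 (-0.41) or syringic acid replicate 2 (-0.39), and came to -0.050 with library type as a term (adjusted p = 0.941). Among libraries of the same type syringic acid was below 4HBA by a log2 difference of -0.46 (SE 0.15, adjusted p = 0.0200). From the highest level down, poplar stood above 4HBA (log2 difference 1.89, adjusted p = 2.11e-08), and none of the neighbouring pairs 4HBA and cellobiose, cellobiose and lignin, or lignin and syringic acid was called.

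Cslcs6 moved little in any condition. Its libraries were at 101, 89.1 and 83.2 CPM on poplar, at 63.3, 62.5 and 67.8 CPM with lignin, and at 83.3, 63.3 and 68.2 CPM with syringic acid. They were at 66.5, 81.5 and 85.9 CPM with 4HBA and at 68.3, 73.0 and 70.1 CPM on cellobiose. The poplar libraries lay above all lignin and cellobiose libraries and overlapped those with syringic acid and 4HBA.

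Cslcs6 averaged 91.1 ± 9.04 CPM on poplar and 70.5 ± 2.37 CPM with cellobiose alone (SD, n = 3 each), a log2 change of 0.37 (SE 0.11, adjusted p = 0.00768). The rise is not firm. It was 0.036 with library type as a term (adjusted p = 0.875), and 0.089 under upper-quartile scaling (adjusted p = 0.494), which moved the median of all genes in this comparison by -0.28. Relative to that median the change was 0.39 under both scalings. A scaling moves all genes nearly alike, so this agreement is built in and does not restore the call. None of the other 3 additions was called against cellobiose, with 95% intervals of -0.37 to 0.11 for lignin, -0.22 to 0.26 for syringic acid and -0.090 to 0.39 for 4HBA. In order of level no neighbouring pair was called, from poplar through 4HBA, at 78.0 ± 10.2 CPM, syringic acid, at 71.6 ± 10.4 CPM, and cellobiose to lignin, at 64.5 ± 2.88 CPM.

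**Figure D2:**
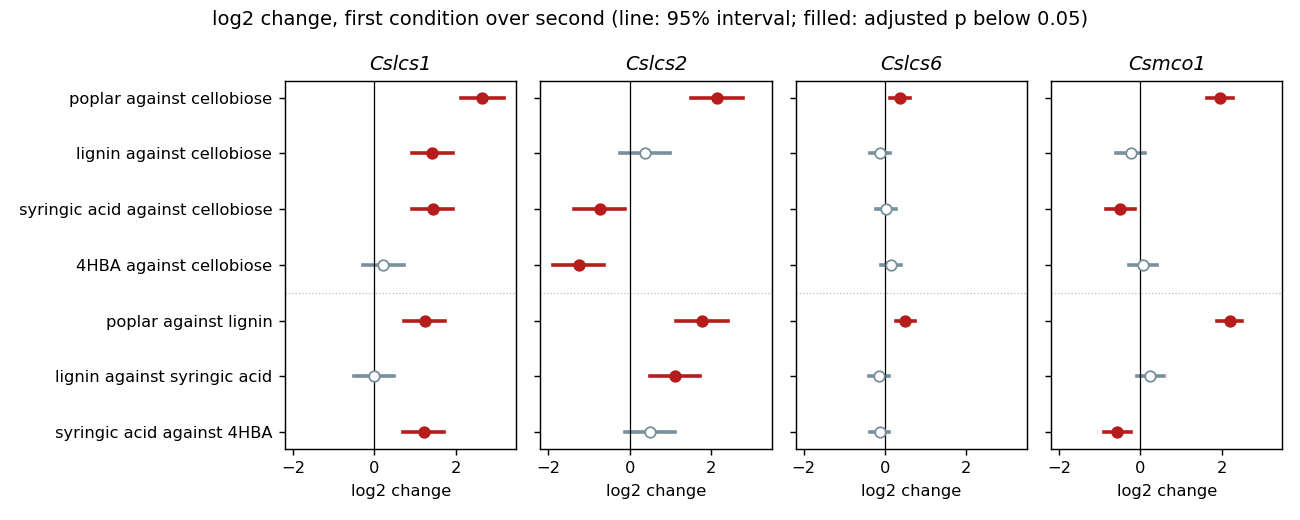
The log2 change of each gene (horizontal axes) in 7 comparisons, first condition over second; lines are 95% intervals and filled red points passed an adjusted p of 0.05. All 4 genes lie to the right of 0 on poplar, Cslcs6 by the least (0.37 against cellobiose and 0.50 against lignin). Cslcs2 lies to the left of 0 with 4HBA at -1.25, and the Cslcs6 intervals all stay between -0.39 and 0.73.

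Poplar was next set against isolated lignin, a comparison within 1 library type in which the cultures differ in wood, in lignin and in cellobiose. All 4 genes were called, beside 79.2% of all genes. The largest of the 4 differences belonged to Csmco1, at 10.8 ± 0.970 CPM on poplar and 2.34 ± 0.248 CPM with lignin (SD, n = 3 each, log2 difference 2.21, SE 0.14, adjusted p = 3.07e-09). Cslcs2 differed by 1.79 and Cslcs1, at 2554 ± 915 CPM on poplar and 1083 ± 57.0 CPM with lignin, by 1.24 (SE 0.24, adjusted p = 0.000236). Cslcs6 was higher on poplar by 0.50 (adjusted p = 0.000855), and by 0.18 under upper-quartile scaling, where the call was lost (adjusted p = 0.159) and the median of all genes moved by -0.31.

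Poplar against syringic acid likewise called all 4 genes, beside 79.0% of all genes, with log2 differences of 2.90 for Cslcs2, 2.46 for Csmco1, 1.23 for Cslcs1 and 0.35 for Cslcs6. The value for Cslcs6 lost its call without syringic acid replicate 2 (0.26) and under upper-quartile scaling (0.068). The all-gene median shifted by -0.28 there. Cslcs6 lay 0.42 above that median under TMM and 0.41 under upper-quartile scaling, a likeness built into such a rescaling. Poplar against 4HBA called 3 of the 4, beside 75.8% of all genes, and left out Cslcs6, at a difference of 0.22. That difference was called under TMM without 4HBA replicate 3 (0.33) or poplar replicate 3 (0.28), and under RLE scaling (0.28). DESeq2 (0.28) and a fit without the most abundant genes (0.29) called it as well. The remaining alternatives did not call it. Among these were libraries of the same type and library type as a term (0.12 each), 4HBA replicate 1 left out (0.13) and upper-quartile scaling (-0.081). Lignin against 4HBA called 2 of the 4, Cslcs1 and Cslcs2, beside 38.7% of all genes. Without 4HBA replicate 1, Cslcs6 was called there as well, with a log2 difference of -0.38 (adjusted p = 0.0158).

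Syringic acid and 4HBA were supplied at the same 2 mM. They are 1 pair of related compounds, with a para-hydroxybenzoic acid core to which syringic acid adds methoxy groups that flank the hydroxyl. The acids differed in 2 of the 4 genes, beside 51.6% of all genes. Cslcs1 was higher with syringic acid, at 1092 ± 216 CPM, than with 4HBA, at 469.9 ± 43.8 CPM (SD, n = 3 each, log2 difference 1.22, SE 0.24, adjusted p = 0.000727), and Csmco1 was lower, by -0.56 (SE 0.15, adjusted p = 0.00752). The difference of Cslcs2 was 0.51, with a 95% interval of -0.11 to 1.13, and was called at 0.82 once syringic acid replicate 2, its lowest library, was left out (adjusted p = 0.0102). That of Cslcs6 was -0.13, with an interval of -0.36 to 0.11.

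Lignin and syringic acid, within 1 library type, differed in 1 of the 4 genes, beside 33.6% of all genes. Cslcs2 was higher with lignin, at 245 ± 19.0 CPM, than with syringic acid, at 113 ± 53.0 CPM (SD, n = 3 each, log2 difference 1.11, SE 0.29, adjusted p = 0.00938). Csmco1 differed by 0.25 (95% interval -0.084 to 0.58) and Cslcs6 by -0.15 (95% interval -0.39 to 0.087), and neither was called.

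The ratio of 2 genes within a library does not depend on how libraries are scaled. The log2 ratio of Cslcs1 to Cslcs2 counts was 2.97 to 3.87 with syringic acid, 2.23 to 2.92 with 4HBA and 2.02 to 2.26 with lignin, all above the 0.97 to 1.28 of the cellobiose libraries. On poplar it was 1.22, 2.24 and 1.22, with replicate 2, the library of highest Cslcs1, apart from the others. Both acids lay above cellobiose in this ratio, beside a called rise of Cslcs1 with syringic acid and a called fall of Cslcs2 with 4HBA. The log2 ratio of Cslcs6 to Csmco1 was 2.90 to 3.30 on poplar, below the 4.18 to 5.29 of the other 12 libraries. With 3 libraries against 3 an exact permutation test cannot go below p = 0.1, and the ratios were not tested.

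**Figure D3:**
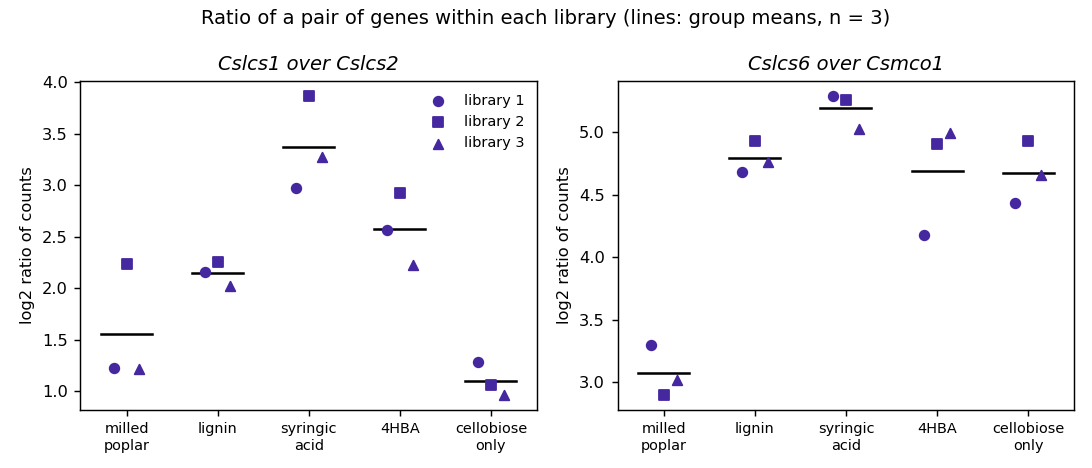
The log2 ratio of counts (vertical axes, which do not start at 0) of Cslcs1 to Cslcs2 and of Cslcs6 to Csmco1 within each library, by condition; points are libraries and lines the means of 3. The first ratio is highest with syringic acid and lowest on cellobiose, and the second is lowest on poplar in each of its 3 libraries.

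The tables name 9 genes as multicopper oxidases, 7 of them laccases. Of the 5 besides Cslcs1, Cslcs2, Cslcs6 and Csmco1, on poplar against cellobiose 1 rose, 3 fell and 1 was not called, beside 76.1% of all genes called. Their median log2 change was -0.74, that of the 4 was 2.06 and that of all genes was -0.020. The 4 genes were chosen with earlier results of these data known, so this contrast is a description and no test. The ferroxidase symbol Csfet3 was at 44.3, 37.4 and 28.2 CPM on poplar and at 515, 301 and 469 CPM on cellobiose, with no overlap, a log2 change of -3.55 (adjusted p = 1.35e-08). Laccase Cslcs5 fell by 1.66 and laccase Cslcs4 by 0.74 on the log2 scale. Laccase Cslcs7 rose by 1.68 (adjusted p = 0.0389), more than Cslcs6 (0.37). Alternatives to the main fit were read only for Cslcs1, Cslcs2, Cslcs6 and Csmco1. The calls of the 5 against cellobiose cross the library types and were not checked in that way, nor were those of the peroxidases below.

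Laccase Cslcs7 had libraries at 16.7, 311 and 291 CPM with syringic acid and at 6.20, 5.90 and 6.38 CPM on cellobiose, a log2 change of 5.06 (adjusted p = 6.29e-05). Syringic acid replicate 1, the library in which Cslcs7 was low, held the highest levels of Cslcs1, Cslcs2, Cslcs6 and Csmco1 among the 3 syringic acid libraries. For Csmco1 the lead over replicate 3 was within counting error (2.13 and 2.10 CPM), and the pattern rests on 1 library. Csfet3 and Cslcs2 were the 2 multicopper oxidases called lower with 4HBA. Csfet3 was at 187 ± 39.9 CPM with 4HBA and 429 ± 113 CPM with cellobiose alone (SD, n = 3 each, log2 change -1.19, adjusted p = 0.00210). The fall of Cslcs2 lost its call with library type as a term (-1.14), a fit not read for Csfet3. With lignin 2 of the 5 other multicopper oxidases rose, Cslcs4 by 1.04 and Csfet3 by 0.67, and Cslcs5 fell by 0.72, beside 47.3% of all genes called. With syringic acid 1 of the 5 rose and 0 fell, beside 56.5% of all genes called, and with 4HBA 0 rose and 1 fell, beside 31.5%.

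**Figure D4:**
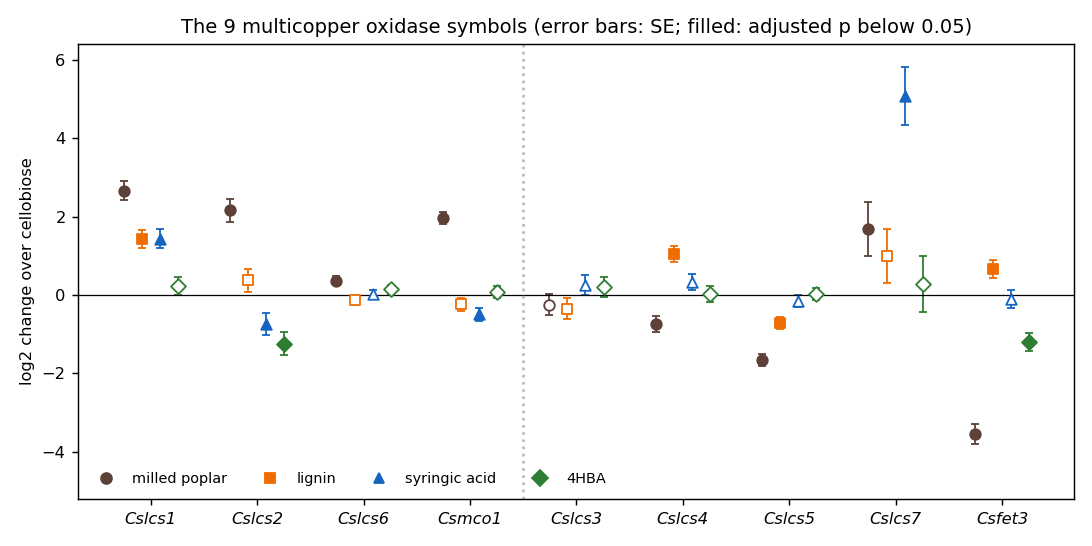
The log2 change over cellobiose (vertical axis) of the 9 multicopper oxidase symbols with poplar, lignin, syringic acid and 4HBA; error bars are SE and filled points passed an adjusted p of 0.05. On poplar the 4 genes left of the dotted line lie above 0, as does Cslcs7 to its right at 1.68. Cslcs4, Cslcs5 and Csfet3 lie below 0, Csfet3 at -3.55, and Cslcs3 at -0.25 was not called.

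Peroxidases are further oxidative enzymes, and white-rot fungi secrete those of class II. Of the 15 class II peroxidases named in the tables (manganese and lignin peroxidases), 10 rose and 5 fell on poplar against cellobiose, beside 76.1% of all genes called, and the median log2 change was 1.24, against -0.020 over all genes. The same list had 2 rises and 5 falls with lignin (47.3% of all genes called), 1 rise and 4 falls with syringic acid (56.5%), and 2 rises and 4 falls with 4HBA (31.5%). The 11 symbols listed as other heme peroxidases, among them heme-thiolate peroxidases, were taken by the prefixes HTP, DyP, CCP and PRX. A prefix does not show that each is secreted or holds heme. These 11 had 7 rises and 4 falls on poplar with a median log2 change of 1.89. Beside the same shares of all genes they had 1 rise and 3 falls with lignin, 4 rises and 3 falls with syringic acid, and 2 rises and 1 fall with 4HBA. The symbols held 0 matches to the list of hydrogen peroxide producing oxidases.

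Likeness of pattern was taken as Pearson's r of log2 CPM over the 15 libraries, among the 108 other tested genes that carry a symbol. It is a description, since libraries of a condition and of a type move together. Csmco1 was closest to the manganese peroxidase MnP6 (r = 0.97), the heme-thiolate peroxidase HTP8 (0.95) and CsMn01 (0.95), and over the 11 libraries of the common type these values were 0.98, 0.98 and 0.96. In the same order of likeness Cslcs2 was followed by MnP8, CsMn36 and MnP6 (0.85 each), with 0.86, 0.86 and 0.87 over the 11 libraries. For Cslcs6 the closest were MnP5 (0.87), CsMn84 (0.85) and the pheromone receptor symbol CsSTE3.5 (0.83).

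Cslcs1 was closest to 2 symbols of autophagy genes, ATG16 (0.91) and ATG27 (0.86), and to CsSTE3.4 (0.84), a pheromone receptor by its symbol, and the last fell to 0.71 over the 11 libraries. Many genes came as close, with 43 of all 10859 other tested genes at or above the r of ATG16 to Cslcs1 and 174 at or above that of MnP6 to Csmco1. Among the 4 genes themselves r over the 15 libraries was highest for Cslcs2 with Csmco1 (0.80) and lowest for Cslcs1 with Cslcs6 (0.43). Over the 11 libraries Cslcs1 with Cslcs2 was highest (0.86, against 0.73 over the 15), just above Cslcs2 with Csmco1 (0.85). Cslcs1 with Cslcs6 was again lowest (0.33).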

How the data were processed

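The authors deposited 1 table of unnormalized read counts per gene for each library. HTSeq, Bowtie, Bowtie2 and FastQC are named in the submitters' processing notes, while versions, settings and genome build stay unknown (not given in the sources used here). Per the labels' protocols, total RNA was depleted of ribosomal RNA and made into stranded libraries. Reads that the counting placed in no gene, 7.84% to 27.9% of all counts, were left out of library sizes and tests.

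The 15 G. subvermispora libraries, grouped by their labels and numbered 1 to 3 within a condition in deposition order, were fitted together in edgeR 4.0.16 (R 4.3.3) with 1 mean per condition, after TMM scaling and edgeR's default expression filter (minimum count 10). Quasi-likelihood F-tests gave 10 comparisons, with Benjamini-Hochberg adjustment over the 10860 tested genes in each. Standard errors were derived from the F statistic. Log2 changes used a prior count of 0.125 and log2 CPM a prior count of 2. The script was tested on simulated counts. Replicate pairs, compared over genes of 20 or more counts, differed by a chi-square of 11.1 to 4255 per gene, and none was a copy of another. The pairs of 4HBA replicate 1 with replicates 2 and 3 were at 3820 and 4255, and all other pairs at 304 or below. Poisson intervals cover counting error only.

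The 4 genes and the lists were chosen with earlier results of these data known. Lists took symbols by prefix, and for each gene the 3 symbols with the highest r were named. Alternatives were RLE and upper-quartile scaling, no filter, DESeq2 1.42.0, fits of both groups alone, library type (top 10 genes above 20% of counts) as a term or matched, removal of the 25 genes above 1% of counts in any library, and each replicate left out.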

Additional observations from a re-analysis of the deposited data

How the results depend on the processing

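Over 7 comparisons (the 4 against cellobiose, syringic acid against 4HBA, lignin against syringic acid, and poplar against lignin), 345 of 372 values of the 4 genes under the alternatives kept direction and call, 15 lost the call, 1 gained it and 11 changed sign. RLE scaling, DESeq2 and the unfiltered fit changed none of 28 each. With library type as a term, 4 of 28 lost the call and 3 changed sign. Leaving out 1 replicate gave 168 of the 372 values, from overlapping sets of libraries. All changes of sign were in comparisons where that gene was not called in the main fit. The cause of the changes was not tested.

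With library type as a term Cslcs2 came to -1.14 with 4HBA and -0.58 with syringic acid, Csmco1 to -0.050 with syringic acid and 0.20 with lignin, and Cslcs6 to -0.085 with 4HBA, -0.31 with syringic acid and 0.036 on poplar. With libraries of the same type Cslcs2 was at -1.14 and Cslcs6 at -0.086 with 4HBA. Such libraries do not exist for the other 3 comparisons with cellobiose. The genes called over all genes were 844 with the term and 837 with matched types for 4HBA, against 3417, 2705 with the term for syringic acid, against 6137, and 1232 for lignin, against 5138.

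Cslcs2 with syringic acid lost its call at -0.70 both without the most abundant genes and with both groups alone. Under upper-quartile scaling Cslcs6 was at 0.089 on poplar against cellobiose, 0.18 against lignin and -0.081 against 4HBA, and Cslcs1 at 0.023 with lignin against syringic acid. That scaling gave 3012 higher of 8420 called genes on poplar against cellobiose, against 4090 of 8264 under TMM, and 3040 of 8791 on poplar against lignin, against 4104 of 8606.

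Leaving out 1 replicate at a time gave -0.045 to 0.16 for Csmco1 with 4HBA, -1.13 to -0.43 for Cslcs2, -0.11 to 0.11 for Cslcs6 and -0.59 to -0.39 for Csmco1 with syringic acid, 0.13 to 0.82 for Cslcs2 with syringic acid against 4HBA, and -0.16 to 0.11 for Cslcs1 with lignin against syringic acid. Called genes with 4HBA ranged from 2216, without 4HBA replicate 2, to 3728. No paired analysis was possible because the replicate numbers are only names given in deposition order, which the labels do not give and which pair nothing.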
